A study of Mus musculus with 16 samples.

Results

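The histone genes of these tables are the 75 genes, of 20436 listed, whose symbol begins with Hist and a cluster number, with H2af or with H3f; the rule reads symbols and no measured value, though the set was picked with earlier results of these data known. Of these, 64 are Hist genes, the replication-dependent set, and 11 are replacement histones, 9 of the H2af kind and 2 of the H3f kind. They were followed in the cerebral cortex of mice aged 28 to 35 postnatal days, of strain FVB.129P2-/Pde6b+ Tyr c-ch //AntJ. The 4 genotypes were wild type (WT), a knockout of Fmr1, a knockout of Cpeb1, and the loss of both genes together (double knockout); which alleles were used is not given in the sources used here. Fmr1 encodes FMRP and Cpeb1 encodes CPEB1, both proteins that bind mRNA and regulate its translation. Cytoplasmic lysate of each cortex was split, one part for RNA-seq after removal of rRNA and one for ribosome profiling, in which the mRNA fragments covered by ribosomes (footprints) are sequenced. Each genotype had 2 libraries per assay, 16 in all, and libraries of the same genotype and number came from one lysate, per the labels' protocols. Nothing in the labels says that the 2 libraries of a genotype came from separate animals, so the p-values below measure only the spread between these libraries. Comparisons asked which histone RNAs and which histone footprints differ between genotypes, and how many footprints each histone gene has for its RNA.

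Histones H2A, H2B, H3 and H4 form the spool around which DNA is wound, and H1 seals the linker DNA. Replication-dependent histone genes lie in clusters, are transcribed mainly in S phase, and mostly give mRNAs that end in a stem-loop bound by SLBP in place of a poly(A) tail; some of them are also known to give polyadenylated transcripts in cells that no longer divide. Replacement histones such as H3.3 and H2A.Z come from genes outside these clusters, with polyadenylated mRNAs. They are deposited throughout life, so that in neurons, which do not replicate DNA, they supply much of the new histone.

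Hist4h4 is the member whose levels differed most clearly between genotypes, and the upstream sequences of 4 members are shown to place it beside the genes it is compared with. Hist1h4h and Hist1h4c are other H4 genes, and H2afj is the gene next to Hist4h4 on chromosome 6. Of the 75 members, 74 matched a gene of the RefSeq table (build GRCm38.p6, the assembly known as mm10, which the submitters' processing notes name) and 68 had a promoter entry there. Each line gives the 250 bases before the annotated start, 5′ to 3′ on the gene's own strand, with matches on either strand to the CCAAT box, the TATA element TATAAA, the letters GGTCCG and the octamer ATTTGCAT in capitals. The windows are chr6:136804432-136804681 on the minus strand for Hist4h4 (RefSeq symbol H4f16), chr13:23530794-23531043 on the plus strand for Hist1h4h (H4c8), chr13:23698459-23698708 on the minus strand for Hist1h4c (H4c3) and chr6:136807998-136808247 on the plus strand for H2afj (H2aj).
Hist4h4: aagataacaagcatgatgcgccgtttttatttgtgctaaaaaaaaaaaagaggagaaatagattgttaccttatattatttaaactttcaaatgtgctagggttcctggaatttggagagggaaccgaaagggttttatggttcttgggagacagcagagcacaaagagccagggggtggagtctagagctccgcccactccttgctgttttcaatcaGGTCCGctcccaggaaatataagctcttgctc
Hist1h4h: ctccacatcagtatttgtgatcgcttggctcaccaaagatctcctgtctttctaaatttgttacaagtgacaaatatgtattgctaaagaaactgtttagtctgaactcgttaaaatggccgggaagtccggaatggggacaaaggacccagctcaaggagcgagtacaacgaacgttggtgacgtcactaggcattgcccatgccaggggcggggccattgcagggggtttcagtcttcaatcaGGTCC
Hist1h4c: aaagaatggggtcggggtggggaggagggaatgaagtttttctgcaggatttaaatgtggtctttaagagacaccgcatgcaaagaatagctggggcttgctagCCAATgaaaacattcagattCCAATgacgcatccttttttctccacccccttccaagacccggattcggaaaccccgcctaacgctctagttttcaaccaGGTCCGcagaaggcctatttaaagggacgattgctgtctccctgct
H2afj: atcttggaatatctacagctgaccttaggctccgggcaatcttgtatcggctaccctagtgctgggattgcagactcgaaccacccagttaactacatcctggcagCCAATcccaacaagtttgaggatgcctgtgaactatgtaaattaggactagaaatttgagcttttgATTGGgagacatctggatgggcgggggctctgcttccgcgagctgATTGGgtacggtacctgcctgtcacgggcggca

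The 3 H4 promoters share the letters GGTCCG close to the start, and H2afj has none of them but 3 matches to CCAAT. In Hist1h4h the match runs 1 base past the annotated start, so its last letter is not printed. Over whole entries of 300 bases (250 before and 50 after the start), GGTCCG was found in 11 of 12 H4 promoters, in 0 of 6 H1, 0 of 16 H2A, 1 of 15 H2B and 1 of 9 H3 promoters, in 3 of 8 H2A and 0 of 2 H3 replacement promoters, and in 8.25% of all 32851 promoters of the table. CCAAT was found in all 6 H1, all 16 H2A, all 15 H2B and all 9 H3 promoters, but in 3 of 12 H4 promoters. It was also found in 8 of 10 replacement promoters, against 37.4% of all promoters. TATAAA was found in 34 of 58 Hist promoters (58.6%) and 1 of 10 replacement promoters, against 13.6% of all, and the octamer ATTTGCAT in 7 of 16 H2A and 7 of 15 H2B promoters, against 1.74% of all. Matches to these motifs overlapped in 1 member promoter. Hist4h4 and Hist1h4h share a run of 14 bases, TTCAATCAGGTCCG, that was found in 3 of the 32851 promoters, both of these included. A match describes letters in the window and was not tested as a binding site.

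Of the 75 members, 43 (35 Hist, 8 replacement) had enough counts to be tested in both assays. The filter passed 46 in RNA-seq and 51 in footprints, and 21 passed in neither assay. Of the latter, 10 were listed at 0 in all 16 libraries, namely 7 Hist genes and H2afb1, H2afb2 and H2afb3. By type, 5 of 6 H1, 8 of 16 H2A, 8 of 18 H2B, 6 of 11 H3 and 11 of 13 H4 genes passed in RNA-seq. In footprints the numbers were 5, 7, 14, 6 and 11, and 6 of 9 H2A and 2 of 2 H3 replacement genes passed in both assays. Hist1h3h, Hist1h2ai and Hist1h2ab passed in RNA-seq only, at means of 2.98, 5.06 and 4.35 TPM against 0.119, 0.0788 and 0.0463 TPM in footprints. RNA-seq libraries held 5423925 to 10246482 estimated counts and footprint libraries 16239703 to 24973757, and the Hist genes took 0.0406% to 0.0585% of the former and 0.0792% to 0.0938% of the latter. The targeted genes followed the labels: Fmr1 footprints were 96.5 CPM, scaled by library size, in WT against 7.28 with Fmr1 alone lost and 5.42 in the double knockout, and Cpeb1 footprints were 34.4 in WT against 7.37 with Cpeb1 alone lost and 7.71 in the double knockout. Neuron markers summed to 7323 to 9144 TPM (abundance scaled per length) of RNA, and 22 proliferation genes together to 185 to 225 TPM. The 5 choroid plexus markers ran widest, from 39.3 to 799 TPM in RNA and from 51.1 to 419 in footprints. In footprints both WT libraries (59.4 and 64.4) lay below the Cpeb1 and double knockout libraries (122 to 419). Fmr1 knockout libraries had 51.1 and 354. In RNA both double knockout libraries (148 and 39.3) lay below the WT and Fmr1 knockout libraries (198 to 799). Cpeb1 knockout libraries had 236 and 129. The part of these markers in the results was not tested. In bulk cortex, fewer cells of a type and less RNA per cell cannot be told apart.

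Histone RNA in this cortex was spread over both classes. Summed levels in TPM, which are scaled per length within each library, ran for the 64 Hist genes from 1662 to 2228 in RNA (median 1999) and from 2496 to 2849 in footprints (median 2652). For the 11 replacement genes they ran from 1303 to 1523 in RNA and from 2166 to 2425 in footprints. Hist genes thus exceeded replacement genes in every library: the ratio of the sums was 1.39 ± 0.135 in RNA (SD, n = 8 libraries) and 1.17 ± 0.0514 in footprints. The 8 values are libraries of 4 genotypes and are given as a description.

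By type, H4 was the largest Hist sum, at 908 ± 132 TPM of RNA and 1237 ± 65.2 TPM of footprints (SD, n = 8). H1 followed in footprints with 658 ± 61.2 TPM against 350 ± 32.0 in RNA. H2A summed to 258 ± 21.2 and 302 ± 10.1 TPM, and H2B to 336 ± 50.1 and 358 ± 44.1 TPM, in RNA and footprints in that order. In both H3 and H2A the replacement genes led. The 11 Hist H3 genes summed to 79.5 ± 12.9 TPM of RNA and 107 ± 18.1 TPM of footprints. H3f3a and H3f3b alone summed to 631 ± 61.2 and 1303 ± 66.7 TPM. The H2A replacement genes summed to 763 ± 31.3 and 971 ± 33.7 TPM, above the Hist H2A sums in both assays. By cluster, the Hist1 genes on chromosome 13 gave 1210 ± 123 TPM of RNA, the Hist2 genes 322 ± 50.3, the Hist3 genes 274 ± 19.3, and Hist4h4, the only Hist4 gene, 125 ± 52.4.

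**Figure D1:**
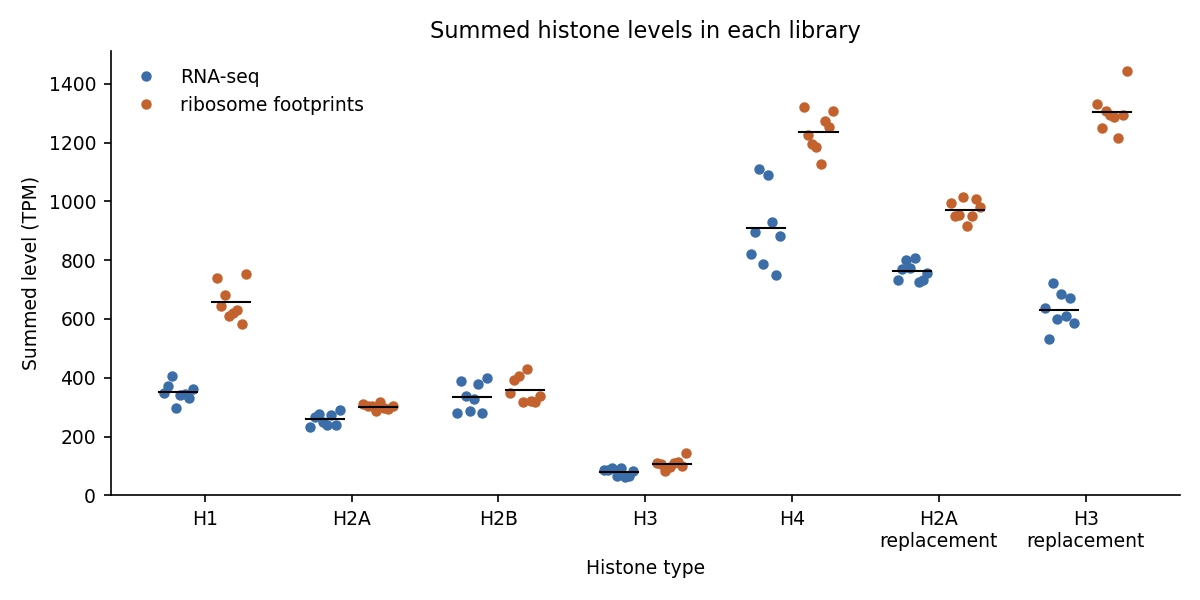
Summed deposited TPM of each histone type (y axis) in each of the 8 RNA-seq libraries (blue points) and 8 footprint libraries (orange points), with the mean as a black line. H4 and H3 replacement genes reach the highest footprint sums, at means of 1237 and 1303 TPM, and Hist H3 genes the lowest, at 107 TPM.

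H3f3b and H2afz were the most abundant single members in both assays; the other replacement genes lay among the Hist genes in RNA. H3f3b, which encodes the variant H3.3, had a lowest, median and highest RNA level of 328, 443 and 508 TPM and footprint level of 837, 893 and 1054 TPM. H3f3a, the other gene for H3.3, had 143, 200 and 220 TPM of RNA and 378, 395 and 415 TPM of footprints. H2afz, for the variant H2A.Z, had 356, 409 and 445 TPM of RNA and 574, 612 and 644 TPM of footprints. In these 3 genes all footprint values lay above the RNA values of the gene, as they also did in H2afy2 below. TPM is relative within each assay, and the share of all genes that separate in this way is not given.
H2afj had 114, 134 and 160 TPM of RNA and 85.2, 102 and 126 TPM of footprints. H2afx, whose product is phosphorylated at DNA breaks, had 38.8, 47.1 and 67.4 TPM of RNA and 64.8, 79.8 and 95.1 TPM of footprints. H2afy, the gene of the large variant macroH2A1, had 81.2, 88.2 and 97.5 TPM of RNA and 68.6, 71.0 and 74.7 TPM of footprints. For H2afj and H2afy the order of the assays is thus the other way round.
H2afv, for the other H2A.Z protein, had 55.8, 65.0 and 74.3 TPM of RNA and 57.3, 68.1 and 78.8 TPM of footprints. H2afy2, for macroH2A2, had 19.6, 22.3 and 28.5 TPM of RNA and 28.9, 34.0 and 35.6 TPM of footprints. It was the lowest of the 8 replacement genes that passed the filter.

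Among Hist genes the 8 with the highest footprint levels belonged to 4 types. The H4 gene Hist1h4d had a lowest, median and highest level of 187, 215 and 248 TPM in RNA and 216, 263 and 292 TPM in footprints. Hist3h2a, an H2A gene of the Hist3 cluster, had 174, 183 and 209 TPM in RNA and 244, 259 and 273 TPM in footprints. Hist2h4, an H4 gene, had 73.7, 96.1 and 115 TPM in RNA and 247, 255 and 265 TPM in footprints. These footprint levels lay close together, whereas the RNA of Hist2h4 was the lowest of the 3.
The H1 gene Hist1h1e had 94.3, 110 and 120 TPM in RNA and 217, 249 and 295 TPM in footprints. Hist2h2bb, an H2B gene, had 137, 177 and 230 TPM in RNA and 187, 219 and 303 TPM in footprints. Hist1h4h had 92.7, 112 and 129 TPM in RNA and 149, 208 and 223 TPM in footprints. The lowest Hist1h4h footprint values were those of the double knockout, described further down.
The H1 gene Hist1h1c had 93.6, 122 and 144 TPM in RNA and 145, 161 and 199 TPM in footprints. Hist1h1d, also H1, had 50.0, 62.1 and 76.9 TPM in RNA and 126, 148 and 196 TPM in footprints. RSEM, which the headers' format points to, shares reads that align to several genes among them, so values of single near-identical copies are uncertain and the sums by type stand beside them.

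Most histone genes had more footprints for their RNA than the typical gene. A fit of all 16 libraries compared the assays within each lysate and per length. In it 28 of the 35 Hist genes tested passed (edgeR, adjusted p under 0.05). Relative to all genes, 23 of them had more and 5 had fewer footprints for their RNA, and all 8 replacement genes passed with more. Among the 23, the calls of Hist1h3a, Hist3h2bb-ps and Hist1h2bf ended in 9 of 13, 4 of 13 and 1 of 9 alternatives. The reference of this contrast is set by scaling over all genes. H2afj and H2afy thus count as more, although their mean TPM was lower in footprints than in RNA. The share of all 13027 genes that passed in this contrast was 83.4%, so passing sets no histone gene apart; the sizes do the describing. The median log2 ratio of footprints to RNA was 0.81 over the 35 Hist genes and 1.17 over the 8 replacement genes, against -0.05 over all genes tested. In TPM, the ratio of mean footprint to mean RNA level had a median of 0.644 over the same 13027 genes (quartiles 0.397 and 0.977), and 27 of 35 Hist and 8 of 8 replacement genes lay above that median.

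H3f3b and H3f3a led the replacement genes, at log2 ratios of 1.65 ± 0.06 (SE; adjusted p = 4.23e-13 by edgeR's quasi-likelihood test) and 1.60 ± 0.06 (adjusted p = 8.43e-13). H2afj was lowest at 0.21 ± 0.07 (adjusted p = 0.00837), and it missed the threshold when no length offset was used. The highest Hist genes were Hist2h4 at 1.98 ± 0.07 (adjusted p = 3.68e-13), Hist1h3e at 1.98 ± 0.11 and Hist1h1d at 1.86 ± 0.08. Hist1h3e, an H3 gene, had 20.5, 24.4 and 31.4 TPM of RNA (lowest, median, highest) and 47.3, 68.4 and 98.7 TPM of footprints.

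Hist1h4c stood at the other end. Its RNA ran from 101 to 161 TPM (median 129), overlapping the range of Hist1h4h (92.7 to 129) and below that of Hist1h4d, but its footprints ran from 2.85 to 7.04 TPM (median 4.67). The log2 ratio was -4.15 ± 0.17 (adjusted p = 9.94e-13 by edgeR) and stayed between -4.33 and -4.01 over 13 alternatives. Hist1h4c made up 14.7% ± 2.06 of the summed H4 RNA (SD, n = 8) and 0.399% ± 0.135 of the summed H4 footprints. These footprint values rest on 11.8 to 34.1 estimated counts per library, against 123 to 313 in RNA. Hist1h2bg, an H2B gene, had 9.77, 10.6 and 22.6 TPM of RNA and 2.07, 3.30 and 5.18 TPM of footprints, a log2 ratio of -1.13 ± 0.23. Hist1h2be, also H2B, had 6.57 to 18.7 TPM of RNA and 1.66 to 4.21 TPM of footprints, a log2 ratio of -1.08 ± 0.20. The H2A gene Hist2h2ac and the H4 gene Hist1h4k were the other 2 with fewer footprints, at -0.85 and -0.80. Among the other H4 genes, Hist1h4d held 23.9% of summed H4 RNA and 20.9% of footprints, Hist4h4 13.4% and 11.8%, and Hist1h4h 12.3% and 16.1%. Hist2h4 held 10.7% of RNA and 20.7% of footprints. Whether reads of such copies were assigned differently in the 2 assays, whose fragments differ in length, was not tested.

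**Figure D2:**
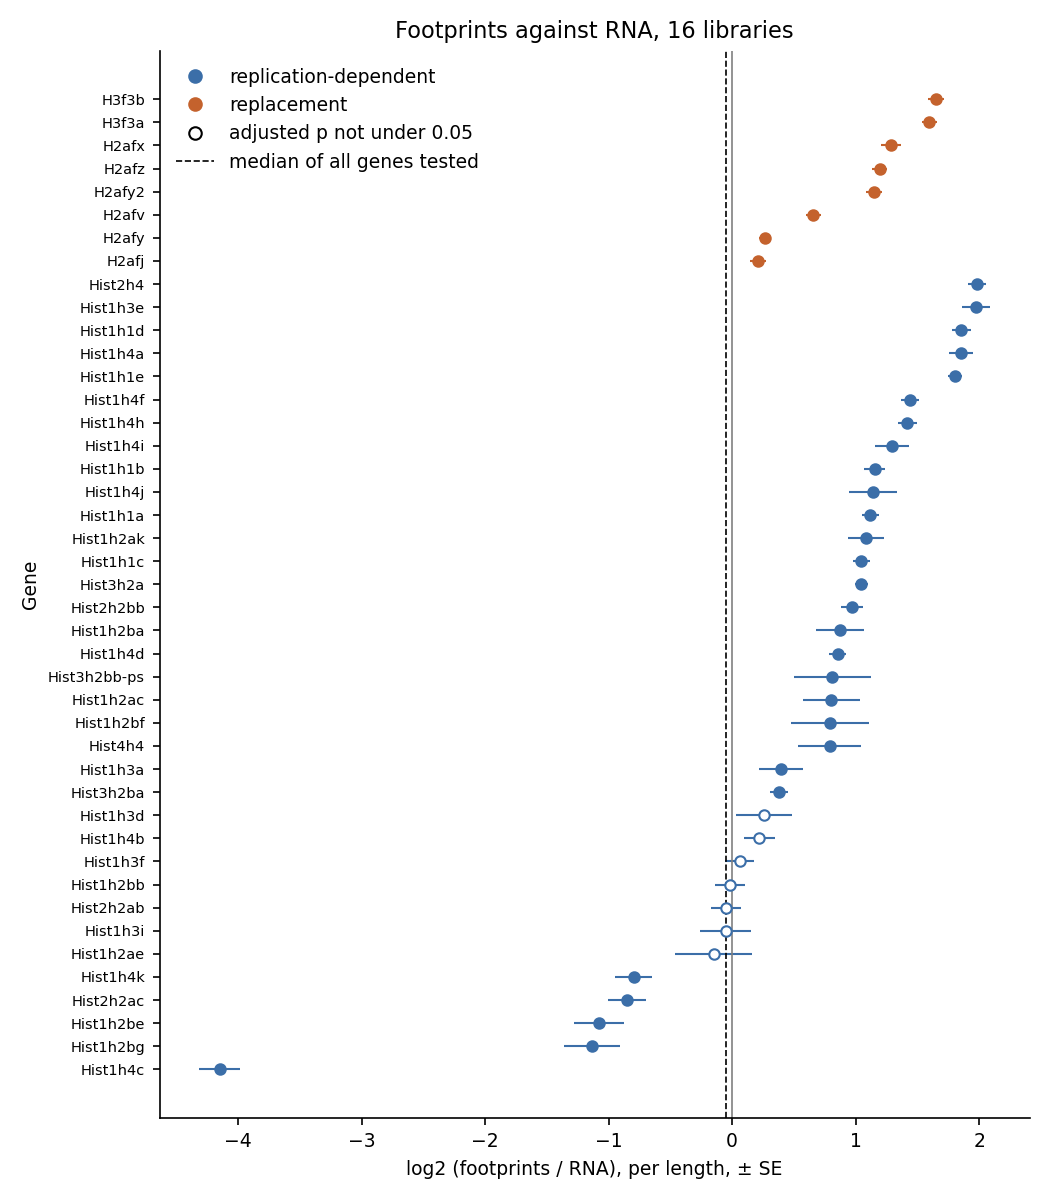
Log2 ratio of footprints to RNA per length (x axis, ± SE) for the 35 Hist genes (blue) and 8 replacement genes (orange) tested in both assays, over 16 libraries; open points did not pass the threshold and the dashed line is the median of all genes tested, -0.05. Replacement genes run from 0.21 to 1.65 and Hist genes from -4.15 to 1.98.

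Between genotypes, few histone genes passed the test. In RNA none of the 46 members tested passed in the Fmr1 knockout against WT (0.00753% of all genes passed), in the Cpeb1 knockout against WT (0%) or in the double knockout against WT (0.00753%) by edgeR's quasi-likelihood test; at an unadjusted p under 0.05 there were 4, 2 and 0 members, and DESeq2 called none in any of the 3. Between the double knockout and the Fmr1 or the Cpeb1 knockout no member passed in RNA either (0% and 0.00753% of all genes passed), with 5 and 6 members at an unadjusted p under 0.05 and none by DESeq2. In footprints none of the 51 members passed in either single knockout against WT (0.0581% and 0.0799% of all genes passed), with 1 member at an unadjusted p under 0.05 in each and none by DESeq2. The double knockout against WT had 2 members that passed in footprints, Hist4h4 and Hist1h4h, where 2.65% of all 13774 genes did. The percentages are shares at the adjusted threshold. Counts at an unadjusted p under 0.05, here and below, stand without the share of all genes at that threshold and are no result about the members. The comparisons with WT share the WT libraries.

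**Figure D3:**
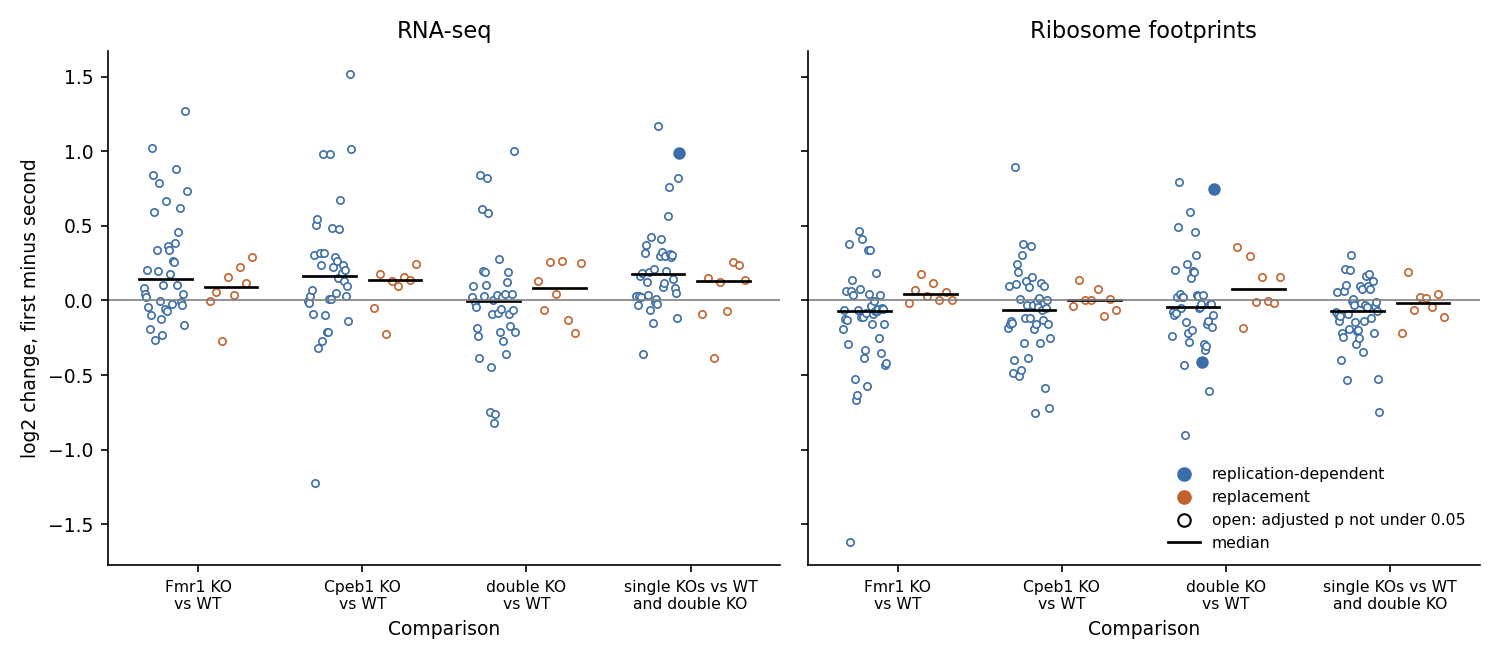
Log2 change (y axis, first group minus second) of each tested Hist gene (blue) and replacement gene (orange) in RNA (left) and footprints (right), for 4 comparisons; black lines are medians and filled points passed the threshold. Hist4h4 is the filled point in the RNA of the single knockouts, at 0.99, and the upper one in the footprints of the double knockout, at 0.75, with Hist1h4h below it at -0.41.

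Hist4h4, an H4 gene that lies outside the large clusters (chr6:136803993-136804431), had its highest footprint levels in the double knockout. Its footprint levels in libraries 1 and 2 were 142 and 135 TPM for WT, 94.8 and 112 for Fmr1 knockouts, 113 and 120 for Cpeb1 knockouts, and 210 and 250 for double knockouts. Both double knockout libraries lay above the other 6, and both Fmr1 knockout libraries below all others. Statements of this kind, here and below, describe the listed values. The share of all genes that separate in the same way is not given. Against WT the double knockout was 1.68-fold higher (log2 change 0.75 ± 0.10 SE, adjusted p = 0.00548 by edgeR). Against the Fmr1 knockout it was 2.24-fold higher (1.16 ± 0.11, adjusted p = 5.74e-04), where 1 member passed and 0.334% of all genes did. Against the Cpeb1 knockout it was 2.00-fold higher (1.00 ± 0.10, adjusted p = 0.0018), where 2 members passed and 5.6% of all genes did. These 3 comparisons share the double knockout libraries. The call against WT ended without double knockout library 2 (0.63, adjusted p = 0.0929). Some marker sums also set the double knockout footprints apart. Sums of 22 proliferation genes (215 and 209 TPM, against 226 to 247 in the other 6 libraries) and of 8 microglia markers (42.7 and 60.0, against 66.4 to 86.1) were lowest there. The sum of 8 astrocyte markers was also lowest, by a narrow gap (1501 and 1551, against 1557 to 1766). Sums of 7 progenitor markers (144 and 135, against 96.8 to 127) and, by a narrow gap, of 6 oligodendrocyte precursor markers (232 and 236, against 195 to 229) were highest. Sums of neuron, oligodendrocyte, endothelial, blood and choroid plexus markers in the double knockout footprints overlapped those of the other libraries. The part of the marker sums in the result was not tested. The single knockouts against WT stood at -0.42 ± 0.11 (Fmr1, adjusted p = 0.515) and -0.25 ± 0.11 (Cpeb1, adjusted p = 1.00) and did not pass.

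The RNA of Hist4h4 was ordered differently. Its RNA levels in libraries 1 and 2 were 79.9 and 109 TPM for WT, 199 and 93.4 for Fmr1 knockouts, 188 and 173 for Cpeb1 knockouts, and 69.1 and 92.4 for double knockouts. Fmr1 knockout library 2 lay among the WT and double knockout values, and the other 3 single knockout libraries lay above them all. With both single knockouts as one group against WT and the double knockout as the other, 4 libraries each, Hist4h4 was 1.98-fold higher in the single knockouts (log2 change 0.99 ± 0.20, adjusted p = 0.0135 by edgeR). It was the 1 member of 46 to pass, where 7.31% of all 13287 genes did. The summed RNA of 6 oligodendrocyte precursor markers was lower in the 4 single knockout libraries (79.2 to 120.9 TPM) than in the other 4 (121.2 to 152.9), and neuron markers summed to 7323 to 8017 against 7950 to 9144 TPM; their part in the result was not tested. The call ended without WT library 1 (adjusted p = 0.0607), without Fmr1 knockout library 1 (0.0577), without double knockout library 1 (0.0655) and when the 4 genotypes were fitted as separate groups (0.0504), at log2 changes of 0.82 to 0.98.

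The same contrast sets the effect of Cpeb1 loss in WT against its effect on the Fmr1 knockout background. In RNA, Hist4h4 stood at 1.02 ± 0.31 in the Cpeb1 knockout against WT and at -0.95 ± 0.32 when the double knockout was set against the Fmr1 knockout; neither passed by itself (adjusted p = 0.326 and 0.220), but both passed when only the groups compared were fitted (1.00, adjusted p = 0.0264, and -0.89, adjusted p = 0.00794). In footprints the signs were the other way round, -0.25 and 1.16, and the pooled contrast gave -0.75 ± 0.17, which did not pass in the fit of 2 groups (adjusted p = 0.711, where 0% of all genes passed and DESeq2 called no member) but passed when the 4 genotypes were fitted separately (-0.71, adjusted p = 0.00198).

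Footprints per RNA of Hist4h4 accordingly differed most between the double knockout and the single knockouts. The ratio of footprint to RNA TPM in lysates 1 and 2 was 1.78 and 1.24 for WT, 0.476 and 1.20 for Fmr1 knockouts, 0.602 and 0.694 for Cpeb1 knockouts, and 3.04 and 2.71 for double knockouts. Both double knockout lysates lay above the other 6, and all 4 single knockout lysates below both WT lysates. The change in footprints relative to the change in RNA (translational efficiency), single knockouts against WT and double knockout, was -1.71 ± 0.30 on the log2 scale (adjusted p = 0.0382, interaction of assay and genotype in edgeR). Hist4h4 was the 1 of 43 members to pass there, where 0.184% of 13027 genes did. The call ended in the fit with no replicate block (-1.71, adjusted p = 0.0602) and when lysate 1 of any genotype or lysate 2 of the Cpeb1 knockout was left out (adjusted p = 0.102 to 0.210). Against WT, the double knockout stood at 0.93 ± 0.36, the Fmr1 knockout at -1.15 ± 0.35 and the Cpeb1 knockout at -1.26 ± 0.34, with adjusted p of 1.00, 0.528 and 0.332; no member passed in these 3, where 0.00768%, 0.0154% and 0% of all genes did. At an unadjusted p under 0.05 there were 2, 2 and 3 members, and DESeq2 called none.

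In the authors' deposited tables, Hist4h4 footprints in the double knockout were higher than in WT by 0.66 on the log2 scale (adjusted p = 1.18e-06). In the authors' deposited tables of translational efficiency, its change was 0.86 in the double knockout (adjusted p = 0.0114), -1.11 in the Cpeb1 knockout (adjusted p = 3.79e-08) and -0.92 in the Fmr1 knockout (adjusted p = 0.118), each against WT. In RNA, the authors' deposited tables give Hist4h4 as lower in WT than in the Cpeb1 knockout (-0.46, adjusted p = 0.0353) and lower in the double than in the Cpeb1 knockout (-0.55, adjusted p = 0.00247). The latter difference stood at -1.23 ± 0.32 in the fit used here (adjusted p = 0.112), and passed there with no filter (0.0315), with the length correction (0.0436) and with only those groups fitted (0.00248). Those tables came from the same libraries.

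Hist1h4h moved the other way in footprints. Its footprint levels in libraries 1 and 2 were 223 and 205 TPM for WT, 211 and 213 for Fmr1 knockouts, 205 and 210 for Cpeb1 knockouts, and 169 and 149 for double knockouts. Both double knockout libraries lay below the other 6, which fell within 205 to 223 TPM. It was 0.752-fold the WT level in the double knockout (log2 change -0.41 ± 0.09, adjusted p = 0.0353 by edgeR) and 0.774-fold the Cpeb1 knockout level (-0.37 ± 0.09, adjusted p = 0.0342). Against the Fmr1 knockout the change was -0.41 ± 0.09 with an adjusted p of 0.0665. That comparison passed by DESeq2 (adjusted p = 0.0420), and by edgeR with no filter (0.0489) and with only those groups fitted (0.00465). In the authors' deposited tables, from the same libraries, it was lower than in WT, the Fmr1 and the Cpeb1 knockout (adjusted p = 0.00684, 0.0129 and 0.0150). The calls against WT and the Cpeb1 knockout both ended in the fit with no replicate block (adjusted p = 0.0740 and 0.0657). The call against WT also ended when only these groups were fitted, and without double knockout library 1 or 2, Cpeb1 knockout library 1 or 2, or Fmr1 knockout library 2. The call against the Cpeb1 knockout also ended without any single knockout or double knockout library, 1 at a time (adjusted p up to 0.314). Its RNA ran from 92.7 to 129 TPM with overlapping genotypes, and the double knockout stood at 0.02 ± 0.21 against WT. Hist1h4h is another H4 gene, and the summed H4 footprints of all 13 H4 genes, 1320 and 1227 TPM in WT and 1255 and 1309 in the double knockout, overlapped.

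**Figure D4:**
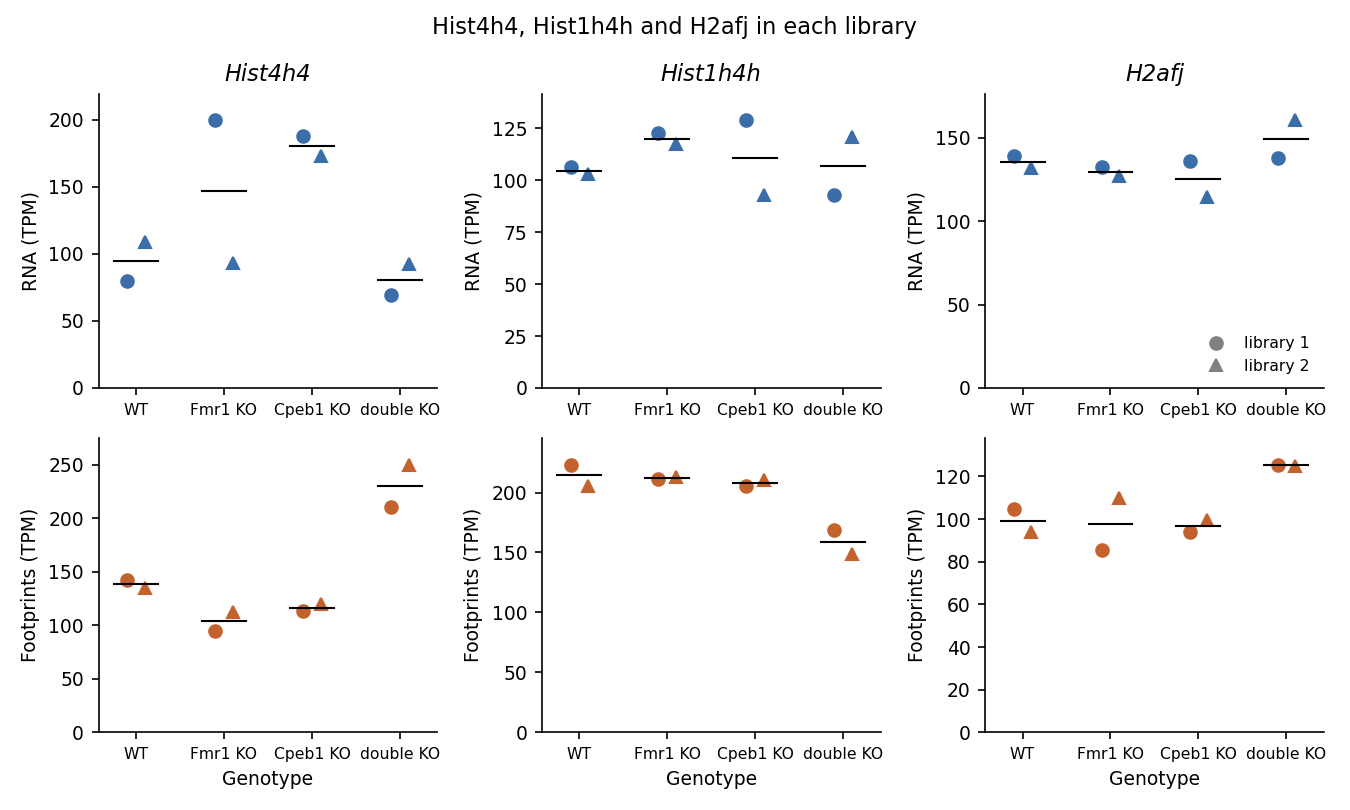
Deposited TPM (y axis) of Hist4h4, Hist1h4h and H2afj in RNA-seq (upper row) and footprints (lower row) by genotype, with library 1 as a circle, library 2 as a triangle and the mean as a line. In footprints both double knockout libraries lie above the other 6 for Hist4h4 (210 and 250 TPM) and H2afj (both near 125 TPM), and below them for Hist1h4h (169 and 149 TPM).

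H2afj begins on the opposite strand beside Hist4h4, with 3316 bases between the windows printed above. Its footprint levels in libraries 1 and 2 were 105 and 93.8 TPM for WT, 85.2 and 110 for Fmr1 knockouts, 94.1 and 99.4 for Cpeb1 knockouts, and 126 and 125 for double knockouts. Both double knockout libraries lay above the other 6, but the difference did not pass: the log2 change was 0.36 ± 0.11 against WT (adjusted p = 0.107), 0.37 ± 0.11 against the Fmr1 knockout (adjusted p = 0.155) and 0.39 ± 0.11 against the Cpeb1 knockout (adjusted p = 0.0607). H2afj passed when only the groups compared were fitted, against the Fmr1 (adjusted p = 0.0126) and the Cpeb1 knockout (0.00874), and with no filter against the Cpeb1 knockout (0.0415). It also passed against WT without WT library 1 (0.0248), against both single knockouts without either WT library (0.0156 to 0.0432), and against the Cpeb1 knockout without Fmr1 knockout library 2 (0.0489). In the authors' deposited table, H2afj stood at 0.35 against the Cpeb1 knockout with an adjusted p of 0.0319. H2afj RNA was 139 and 132 TPM in WT and 138 and 160 in the double knockout.

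Of the 5 tested genes on the far side of Hist4h4 (Ddx47, Hebp1, 8430419L09Rik, Grin2b and Atf7ip) and the 6 beyond it (H2afj, Wbp11, Smco3, Mgp, Arhgdib and Rerg), none passed in double knockout footprints against WT. Wbp11, a splicing factor gene next to H2afj, stood at 0.27 ± 0.08 against WT (adjusted p = 0.0764) and passed against the Cpeb1 knockout (0.31 ± 0.08, adjusted p = 0.0342). In RNA, single knockouts against WT and double knockout, H2afj stood at -0.09 ± 0.10 and Wbp11 at -0.29 ± 0.09, so neither shared the higher Hist4h4 value. Grin2b, which encodes a glutamate receptor subunit, stood at -0.12 ± 0.08 in double knockout footprints against WT.

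**Figure D5:**
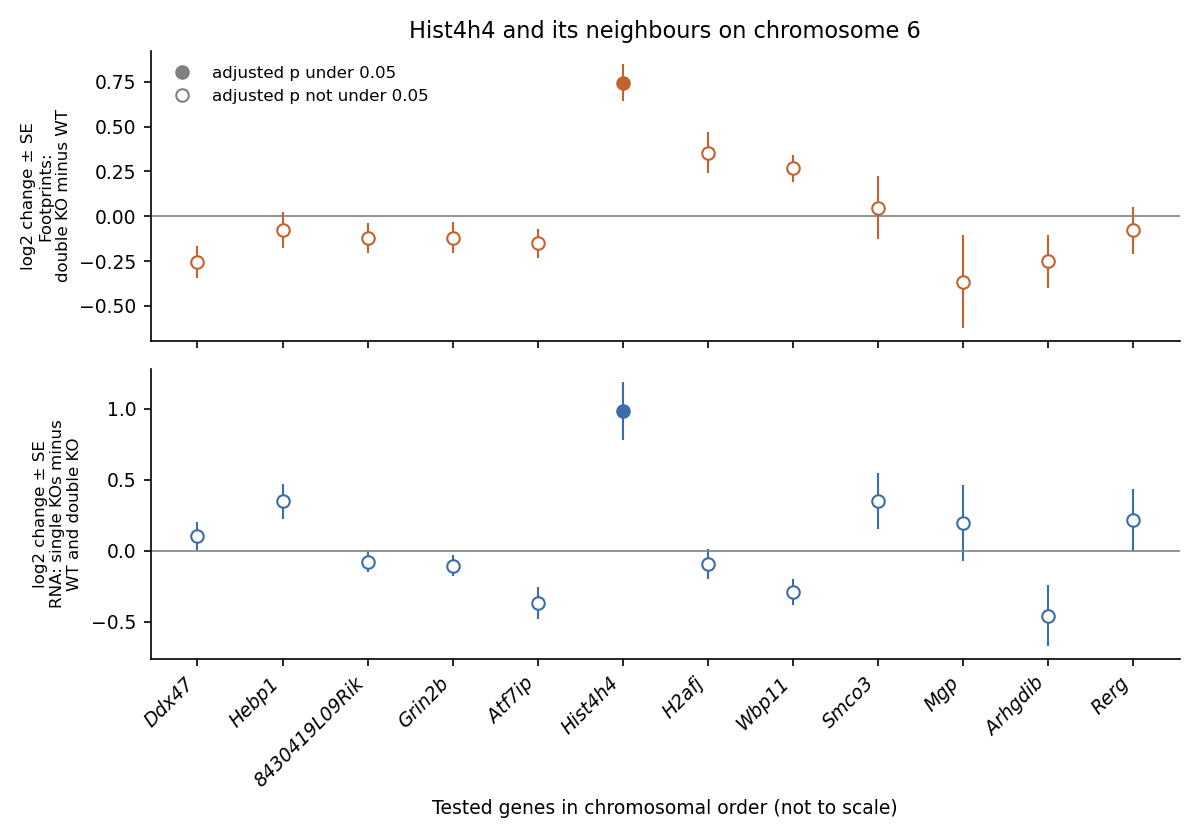
Log2 change (y axis, ± SE) of Hist4h4 and its tested neighbours on chromosome 6, in chromosomal order, for double knockout against WT footprints (upper panel) and for RNA of the single knockouts against WT and double knockout (lower panel); filled points passed the threshold. Hist4h4 stands highest in both panels, at 0.75 and 0.99, with H2afj (0.36) and Wbp11 (0.27) next to it in footprints.

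As a set, the tested Hist genes, Hist4h4 included, differed little between genotypes. In RNA, single knockouts against WT and double knockout, 31 of 38 tested Hist genes had a positive log2 change, with a median of 0.18, and 5 of 8 replacement genes had one, with a median of 0.13; the median of all genes was 0.03. Histone features are short (309 to 669 nt for Hist genes in RNA-seq), and after each library's dependence on length was removed the medians were 0.02 for Hist and -0.00 for replacement genes. In the Fmr1 knockout against WT the Hist median was 0.14, and -0.01 with the length correction. In the Cpeb1 knockout against WT it was 0.17, and -0.00 with the correction. In the double knockout against WT it was -0.00 in both. Footprint medians for Hist genes were -0.07, -0.06 and -0.04 in the Fmr1, Cpeb1 and double knockout against WT, and those for replacement genes 0.04, 0.00 and 0.08.

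H2afx was the replacement gene with the largest RNA difference in the pooled contrast. Its RNA levels in libraries 1 and 2 were 51.5 and 51.0 TPM for WT, 38.8 and 43.2 for Fmr1 knockouts, 42.2 and 41.8 for Cpeb1 knockouts, and 67.4 and 55.9 for double knockouts. All 4 single knockout libraries lay below the other 4, and the share of all genes that separate in this way is not given. The log2 change was -0.38 ± 0.13 (adjusted p = 0.0762), and it passed with the length correction (-0.53, adjusted p = 0.0236). H2afz stood at 0.26 ± 0.08 (adjusted p = 0.0767) and had an adjusted p of 0.0412 in the authors' deposited table of the same contrast, in the same direction.

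Genes that make, process and carry histones, from lists of 18 processing factors, 27 chaperones, 8 other histone genes and 22 proliferation genes, were called only in that pooled RNA contrast or in footprints between the double and the Cpeb1 knockout, besides the contrast of the assays and 1 call between replicate numbers. The counts that follow for the pooled contrast stand beside 7.31% of all genes, and a share near it is no result about a list. Of 16 tested processing factors, Ncbp2, a subunit of the nuclear cap-binding complex, was higher in the single knockouts (0.51 ± 0.13, adjusted p = 0.0275), and Sympk, the scaffold of the cleavage machinery, was lower (-0.37 ± 0.09, adjusted p = 0.0274). Ncbp2 also passed between replicate numbers 1 and 2 in RNA (0.80, adjusted p = 0.0257), where no histone member and 0.309% of all genes did (in footprints, no member and 0.0218%; 4 and 1 members at an unadjusted p under 0.05 in RNA and footprints, and none by DESeq2). Slbp, the stem-loop binding protein gene, had 53.7 ± 6.44 TPM of RNA and 75.9 ± 3.22 TPM of footprints (SD, n = 8).

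Of 24 tested chaperones, Cabin1 and Ubn2, both of the HIRA complex that deposits H3.3, were lower in the single knockouts, by -0.45 ± 0.10 (adjusted p = 0.0172) and -0.40 ± 0.11 (adjusted p = 0.0341), and none was higher; the list's median was 0.05. Of 3 tested other histones, H1fx, a linker histone gene with polyadenylated mRNA, was lower at -0.63 ± 0.14 (adjusted p = 0.0194), with 42.1, 42.9, 32.1 and 56.6 TPM in the 4 single knockout libraries against 70.6, 67.1, 77.7 and 60.2 TPM in WT and the double knockout. H1fx footprints were higher in the double knockout than in the Cpeb1 knockout (0.43 ± 0.10, adjusted p = 0.0352). Of 17 tested proliferation genes, 1 passed, E2f1, a cell cycle transcription factor, which was lower at -0.59 ± 0.14 (adjusted p = 0.0221); the list's median was 0.14.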

How the data were processed

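Estimated counts and TPM per gene in 16 libraries are the authors' deposited values, in the layout of RSEM gene tables per the file headers. The submitters' processing notes name cutadapt, Bowtie2, TopHat2, RSEM, DESeq2 and mm10; their roles and versions are not given in the sources used here. The authors' deposited comparison tables hold log2 changes and adjusted p-values and are quoted only where named. Expected counts were rounded to whole numbers, genes were filtered with a minimum count of 10, and edgeR 4.0.16 (R 4.3.3, TMM scaling, quasi-likelihood test) was fitted with genotype and replicate number as terms, with Benjamini-Hochberg adjustment over all genes. Pooled contrasts were fitted with the pooled groups in place of genotype. Calls had an adjusted p under 0.05, and SE is the log2 change divided by the square root of F. Translational efficiency is the interaction of assay and genotype over 16 libraries. Footprints were set against RNA within each lysate, with an offset for effective length. Levels are deposited TPM. Alternatives were DESeq2 1.42.0, RLE scaling, no filter, no replicate block, length corrections, fits of the compared groups alone, and each library left out in turn.

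On simulated data with known changes, the double knockout comparison recovered 97 of 100 genes changed 2-fold and 38 of 100 changed 1.5-fold in RNA (13242 genes), and 100 and 89 of 100 in footprints (13756 genes). For translational efficiency 95 and 33 of 100 were recovered (12984 genes). The changed genes were drawn from those averaging above 100 counts in each assay. Every gene of an assay had the same simulated spread, without a replicate effect. Recovery of changes in members with fewer counts or a wider spread was not simulated. Same-numbered libraries of different genotypes correlated at -0.05 to 0.35 in RNA and -0.11 to 0.47 in footprints, which does not show that the numbers pair the samples; the number is a term of the main fits all the same, and results that change without it are named. Replicate libraries were not identical. The members, and the lists of processing factors, chaperones, other histones, proliferation genes and cell type markers, were chosen with earlier results of these data known. Values per library are given for the 8 Hist genes highest in footprints, the replacement genes tested in both assays, members called between genotypes, and the 3 highest and 3 lowest called Hist genes in footprints per RNA; H2afj's neighbours were also named. From the other lists, called genes were named, otherwise those with most counts.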

Additional observations from a re-analysis of the deposited data

Results flagged for a closer look

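Among groups of 4 libraries (the single knockouts, or WT and the double knockout) 172 member and assay combinations were looked at for 1 library far from the other 3, and 12 were found; chance gives about 1 in 20. In RNA, H2afv was 74.3 TPM in Cpeb1 knockout library 1 (the other single knockout libraries 63.2 to 65.0). Hist1h2ac was 5.51 TPM in Fmr1 knockout library 1 (others 1.72 to 1.91), and Hist1h4d was 197 TPM in Fmr1 knockout library 2 (others 224 to 228). Hist1h2bg, one of the H2B genes low in footprints, was 14.8 TPM in Cpeb1 knockout library 1 (others 9.77 to 10.5) and 22.6 TPM in double knockout library 2 (others 10.0 to 10.8). Hist1h2ak was 14.1 TPM in double knockout library 2 (others 9.77 to 10.4), and Hist1h4i was 28.3 TPM in WT library 2 (others 20.0 to 21.2).

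In footprints, H2afy2 was 35.0 TPM in Fmr1 knockout library 1 (others 33.3 to 33.5), and Hist1h1d was 196 TPM in double knockout library 2 (others 146 to 153). WT library 1 stood apart in 3 genes: Hist1h3f at 11.6 TPM (others 15.1 to 15.7), Hist1h4d at 292 TPM (others 261 to 266) and Hist2h2ac at 7.52 TPM (others 5.97 to 6.08).

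For Hist4h4, the pooled contrast sets the effect of losing Cpeb1 in WT against its effect on the Fmr1 knockout background. In RNA the effects were 1.02 and -0.95 on the log2 scale, and neither passed by itself in the main fit. The test was the pooled contrast, a difference of group means that is smaller than the difference between the effects: 0.99 in RNA (adjusted p = 0.0135) and -1.71 in translational efficiency (adjusted p = 0.0382), by edgeR. Neither call held in every setting: the RNA call ended in 4 of 14 alternatives and the efficiency call in 6 of 15. The RNA call was among those that ended when the genotypes were fitted as separate groups. In footprints the pooled contrast did not pass in the main fit, but passed with no filter and with the genotypes fitted separately.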

How the results depend on the processing

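Of the results that answer a comparison, the number of histone members called changed as follows. Fitting only the groups compared gave 1 member where there had been 0 in RNA for the Cpeb1 knockout against WT, and for the double knockout against the Fmr1 and the Cpeb1 knockout. In footprints that setting gave 1 in place of 2 for the double knockout against WT, 5 in place of 1 against the Fmr1 knockout and 4 in place of 2 against the Cpeb1 knockout. With the 4 genotypes as separate groups, the pooled contrast of both single knockouts with the other genotypes had 0 members in RNA in place of 1 (274 of all genes in place of 971) and 1 in footprints in place of 0. With no filter on low counts, 1 member in place of 0 was called in RNA between the double and the Cpeb1 knockout and between replicate numbers, and in footprints for the pooled contrast, and 2 in place of 1 for the double against the Fmr1 knockout, where DESeq2 also called 2; against the Cpeb1 knockout, no filter gave 3 in place of 2, H2afj being the third. The length correction gave 1 in place of 0 in RNA between the double and the Cpeb1 knockout and between replicate numbers, and 2 in place of 1 in the pooled RNA contrast.

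The fit with no replicate block called 1 member in place of 2 in footprints of the double knockout against WT (73 of all genes in place of 365) and against the Cpeb1 knockout (207 in place of 772), and 0 in place of 1 in the pooled contrast of translational efficiency (0 in place of 24). It left the count of members in the other genotype comparisons as it was. Leaving out 1 library at a time, the count ran from 0 to 4 in the pooled RNA contrast and in double knockout footprints against WT, from 1 to 3 against the Fmr1 knockout, from 1 to 4 against the Cpeb1 knockout, and from 0 to 1 in pooled translational efficiency. The pooled RNA count was 0 without library 1 of WT, the Fmr1 knockout or the double knockout, 4 without WT library 2 and 2 without double knockout library 2. The footprint count against WT was 4 without WT library 1, 0 without double knockout library 2, and 1 without double knockout library 1, Fmr1 knockout library 2 or either Cpeb1 knockout library. Against the Fmr1 knockout it was 3 without either WT library. Against the Cpeb1 knockout it was 4 without WT library 2, and 1 without Fmr1 knockout library 1, double knockout library 2 or either Cpeb1 knockout library. On summed CPM in place of TPM, the ratio of Hist to replacement genes was 1.20 in RNA and 1.12 in footprints. The cause of these changes was not tested. No result changed its direction where it had been called. Depth limits the low members most: Hist1h4c footprints rest on under 35 counts per library.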
